A study of Gallus gallus with 8 samples.

Results

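Messenger RNA of chicken (Gallus gallus) cranial neural crest cells grown with 1 µg/ml of recombinant DAN protein was compared with that of untreated crest cells, over every gene that passed a count filter. The filter kept 14085 of the 17108 genes in the table. Of the other genes, 378 had no count in the 5 libraries compared and 2645 had too few counts to test. Per the labels, the cells had crept out of neural tube explants from embryos of Hamburger and Hamilton stage 8, onto glass coated with fibronectin and poly-D-lysine. After a night, tubes and ectoderm were lifted away and the attached cells, 200 to 1000 per sample, were collected. The untreated group has 2 libraries, replicates 2 and 3, and the group at 1 µg/ml has 3, replicates 1, 2 and 3. A further 3 libraries at 10 µg/ml are used here to estimate the spread and to set levels side by side. The animals of all groups are leghorn chickens with no stated genetic change, so DAN in the medium is the 1 stated difference. The labels call the replicates biological but do not say whether a sample came from 1 embryo or several.

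DAN, encoded by NBL1, is a secreted protein that binds bone morphogenetic proteins outside the cell and keeps them from their receptors. Those receptors phosphorylate SMAD proteins, which enter the nucleus and switch target genes on or off. Neural crest cells form at the edge of the neural plate, leave the dorsal neural tube and migrate in streams, and bone morphogenetic protein signals take part in their formation. By the study's title, DAN favours collective migration by holding back invasion, and the lower dose asks which transcripts already differ at the smaller amount of protein. Genes are known here by Ensembl ID alone, because 0 of the 17108 IDs could be matched to the reference gene table. The levels of SMAD targets, of crest markers and of markers of neural tube, ectoderm, mesoderm, blood and neurons are therefore not analysed here, and the label of the cells was not checked against them. In such bulk samples, fewer cells of a type and less RNA per cell cannot be told apart.

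The untreated dishes differed from each other about as much as they differed from the dishes with DAN. Total counts were 47523574 and 112505258 in untreated replicates 2 and 3, and 199084828, 70690016 and 81849420 in replicates 1, 2 and 3 at 1 µg/ml. The untreated libraries differed at least 2-fold at 27.9% of genes (3927 genes, on log2 CPM, read counts scaled to library size, with a prior count of 2). The 3 pairs of libraries within 1 µg/ml did so at 10.3% to 12.01% of genes. Pairs of a 1 µg/ml library with untreated replicate 2 differed 2-fold at 29.3%, 30.3% and 33.2% of genes. With untreated replicate 3 the values were 20.0%, 20.3% and 22.3%, below the value of the untreated pair itself. Untreated replicate 3 was thus the nearer of the untreated dishes to every library at 1 µg/ml. On the first principal component of these 5 libraries, with 47.7% of the variance, untreated replicate 2 lay at -99.3 and untreated replicate 3 at -14.3, against 32.6 to 41.6 for the libraries at 1 µg/ml. On the second, with 27.1%, untreated replicate 3 stood apart at -79.6, while untreated replicate 2 at 30.7 lay beyond the 8.75 to 22.1 of the libraries at 1 µg/ml.

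**Figure D1:**
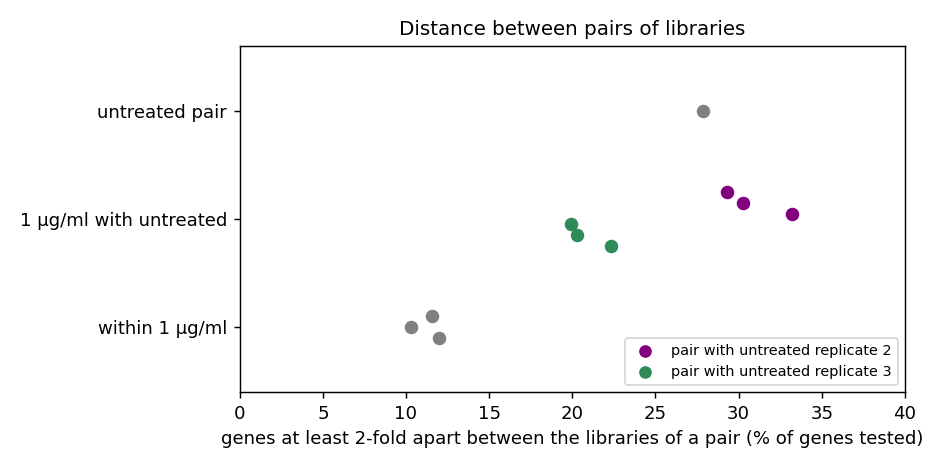
Share of the 14085 tested genes (x axis, %) that lay at least 2-fold apart between the libraries of a pair, 1 point per pair, for the untreated pair, the 6 pairs of a 1 µg/ml library with an untreated one and the 3 pairs within 1 µg/ml. The untreated pair, at 27.9%, lies between the pairs that 1 µg/ml libraries form with untreated replicate 3 and those they form with untreated replicate 2.

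At 1 µg/ml 396 of 14085 genes (2.81%) were called against untreated cells, in the quasi-likelihood test of edgeR (Benjamini-Hochberg adjusted p under 0.05). Rises made up 213 of the calls (1.51%) and falls 183 (1.30%). Scaling to library totals alone gave 411 that rose and 182 that fell. At least a 2-fold change was seen for 147 of the genes that rose and 140 of those that fell, and 109 called genes changed by less. At least a 4-fold change was seen for 57 rises and 41 falls. The median log2 fold change was 1.23 for the rises and -1.41 for the falls, against -0.03 over all genes tested. Over all tested genes the 5th and the 95th percentiles were -1.42 and 1.39. The median stays at 1.23 when the 3 genes with no untreated count are set to a lower bound, taken against 3 counts over the untreated group. Those genes stay above the median at that bound, so the median could not move and this tests nothing.

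The calls stood close to the threshold. The smallest adjusted p was 0.0286 (edgeR), shared by 3 genes, and 0 genes were under 0.01. The adjusted p of 245 called genes lay under 0.04 and that of the other 151 between 0.04 and 0.05. Just beyond the threshold the list lengthened quickly, with 846 genes under 0.06 and 1791 under 0.1 (edgeR). An unadjusted p under 0.05 was found for 3656 genes (26.0%), 1811 of them higher and 1845 lower with DAN. The largest unadjusted p among called genes was 0.0014 (edgeR).

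**Figure D2:**
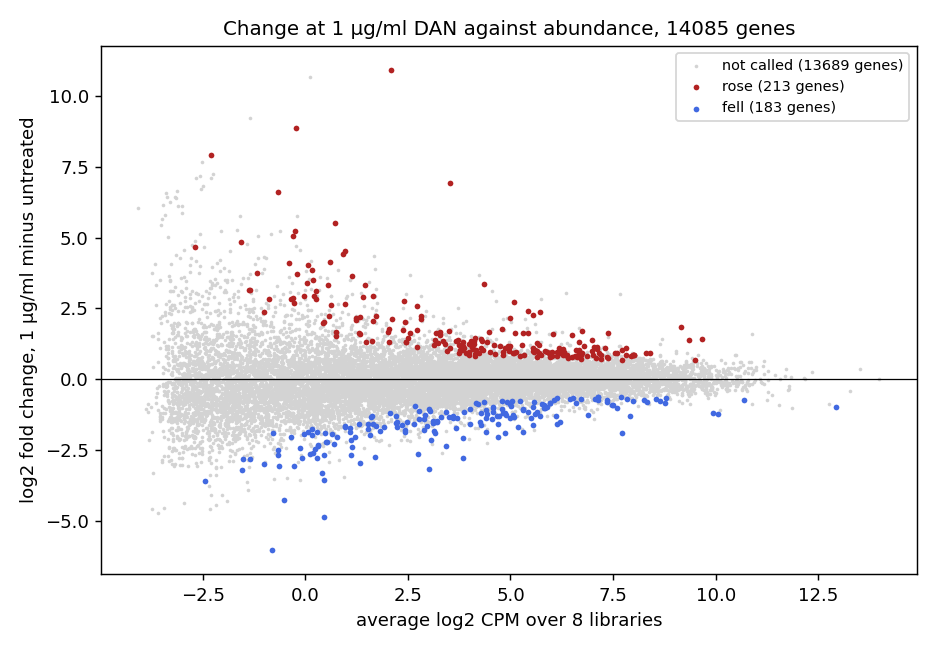
Log2 fold change at 1 µg/ml minus untreated (y axis) against the average log2 CPM over 8 libraries (x axis) for each of the 14085 genes tested, with the 213 genes that rose in red and the 183 that fell in blue. Genes called at low abundance changed by larger factors than those called at high abundance. The test is less precise at low counts, so a call there takes a larger change by construction.

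The genes that rose took a larger part of the normalised read counts at 1 µg/ml, and the genes that fell a smaller one. Levels are normalised CPM, counts scaled to library totals that the trimmed mean of M-values (TMM) adjusts. The 213 genes that rose summed to 6606 and 7614 CPM in untreated replicates 2 and 3, and to 14034, 14783 and 15394 CPM in replicates 1, 2 and 3 at 1 µg/ml. The 183 genes that fell summed to 26455 and 32215 CPM in the untreated libraries and to 15211, 15314 and 14063 CPM at 1 µg/ml. These genes were chosen by their difference between the same libraries, so the sums describe them and test nothing. One gene made up a large part of the second sum, with 8258 and 13394 CPM untreated and 5600, 5753 and 5268 CPM at 1 µg/ml. Without it, the genes that fell summed to 18197 and 18821 CPM untreated and 9611, 9561 and 8795 CPM at 1 µg/ml. No single gene weighed as much among those that rose, where the one with the highest average over all 8 libraries had 300 to 312 CPM untreated and 568 to 1041 CPM at 1 µg/ml.

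Calls were spread over the range of abundance. By mean untreated level, 20 of the 521 genes under 0.1 CPM rose and 29 of the 2932 genes from 0.1 to 1 CPM did so. A further 58 of 4218 rose among genes from 1 to 10 CPM, 86 of 4497 from 10 to 100 CPM and 20 of 1917 over 100 CPM. Genes that fell started higher, with 86 of the 4497 genes from 10 to 100 CPM and 36 of the 1917 over 100 CPM. In the next lower class, 57 of the 4218 genes from 1 to 10 CPM fell. Below 1 CPM 4 genes fell. Classes by the untreated level favour rises among low genes and falls among high ones by construction. By the mean at 1 µg/ml, which favours the reverse, 46 of the 1975 genes over 100 CPM rose and 24 fell. In deciles of the average over all 8 libraries, 2 genes rose and 1 fell in the lowest (median 0.164 CPM), and 21 rose and 20 fell in the highest (median 316 CPM). Most of the 8 libraries hold DAN, so these deciles also favour rises among high genes and falls among low ones by construction. The largest surplus of rises, 43 against 16, stood in the decile with a median of 90.1 CPM. All 1408 genes of that decile leaned the same way. At 1 µg/ml all libraries lay above both untreated ones for 29.1% of them and below both for 15.7%. With abundance-corrected offsets, which flatten the trend of every library over abundance, 374 genes rose and 388 fell in all.

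Few called genes went from absence to expression or the reverse. There were 3 genes that rose from no count in either untreated library, and 6 that rose from 3 or fewer counts. Over all genes tested, 28 had no untreated count, so most of these were not called. Of the 183 genes that fell, 2 had 3 or fewer counts in at least 1 library at 1 µg/ml. The gene with the largest fall of all (log2 fold change -6.04) was 1 of them. It had no count in replicates 2 and 3 at 1 µg/ml, so its counts at this dose came from replicate 1 alone, the deepest library. Summed over the 3 libraries at 1 µg/ml, each of the 183 had at least 10 counts. A floor of 3 counts corresponds to 0.0543 and 0.0293 CPM in untreated replicates 2 and 3 and to 0.0143 to 0.0413 CPM at 1 µg/ml, for counting error only.

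All 396 called genes had libraries that did not overlap, with the 3 at 1 µg/ml above both untreated ones for 213 genes and below both for 183, which a call on these libraries nearly demands. Over all genes tested, 39.9% were separated in this way, 20.2% above and 19.7% below, and 5225 of these 5621 genes were not called. A stronger separation, at least 2-fold in each of the 6 pairs of a 1 µg/ml and an untreated library, held for 259 genes above and 227 below. Of those, 90 were called as rises and 75 as falls, and 321 were not called. The uncalled ones were scarce, with a median average level of 0.375 CPM against 2.36 CPM for the called ones.

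On called genes the untreated dishes lay closer to each other than over all genes tested. The test divides by the spread within groups, so calls favour such genes by construction, and the values of this kind are a description. The median difference between the untreated libraries was 0.31 (log2) on the rises and 0.39 on the falls, against 0.59 over all genes tested. The median range over the 3 libraries at 1 µg/ml was 0.37 and 0.42, against 0.43 over all genes. The median gap between the nearest libraries of the groups was 0.86 and 0.88 (log2). Among the 3927 genes on which the untreated libraries differed at least 2-fold, 44 (1.12%) were called, against 3.47% of the others. On 1424 of those 3927 genes (36.3%) the 3 libraries at 1 µg/ml all lay between the untreated ones. On 2560 of them (65.2%) the mean at 1 µg/ml was closer to untreated replicate 3. That share was 60.0% over all genes tested. Untreated replicate 3 was also the untreated library nearer to 1 µg/ml for most called genes. Of the 213 genes that rose, 150 were higher in untreated replicate 3 than in untreated replicate 2, and of the 183 that fell, 119 were lower. Untreated replicate 2 was the higher one on 28.2% of the rises and 65.0% of the falls, against 46.6% of all genes tested.

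Genes that rose were longer than genes that fell. Gene lengths, taken from the ratio of deposited counts to deposited RPKM (a level per kilobase of gene), had a median of 2893 bases for the rises and 1548 bases for the falls, against 2089 bases over the 14010 genes with a length. In the 4 shortest deciles (5604 genes, up to 1705 bases) 38 genes rose and 99 fell. In the 5 longest (7005 genes, from 2090 bases) 160 rose and 67 fell. In the fifth decile, between them, 15 rose and 17 fell. The lean was not particular to called genes. Of all genes in the second decile, 12.1% lay without overlap above untreated and 26.6% below. The shares were 26.5% and 16.4% in the sixth decile and 19.1% and 17.5% in the longest. Length also separated the untreated dishes from each other. The median log2 difference of untreated replicate 2 minus untreated replicate 3 ran from -0.43 in the shortest decile to 0.35 in the longest, rising at each step. The median log2 fold change of 1 µg/ml minus untreated had a narrower range, from -0.18 in the second decile to 0.09 in the sixth. With length-corrected offsets, which flatten the trend of every library over gene length, 82 rose and 72 fell in the 4 shortest deciles. In the 5 longest 134 rose and 128 fell, so the opposite balances were lost. Such offsets remove most of the difference between groups along gene length, so a more even balance follows largely by construction. Against untreated replicate 3 alone 51 rose and 392 fell in the 4 shortest deciles, and against untreated replicate 2 alone 698 rose and 389 fell, the reverse balance. In the 5 longest deciles 238 rose and 87 fell against untreated replicate 3 alone, and 1007 rose and 987 fell against untreated replicate 2 alone, where the balance was not reversed. The part of length trends of whole libraries in the called genes was not tested further.

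**Figure D3:**
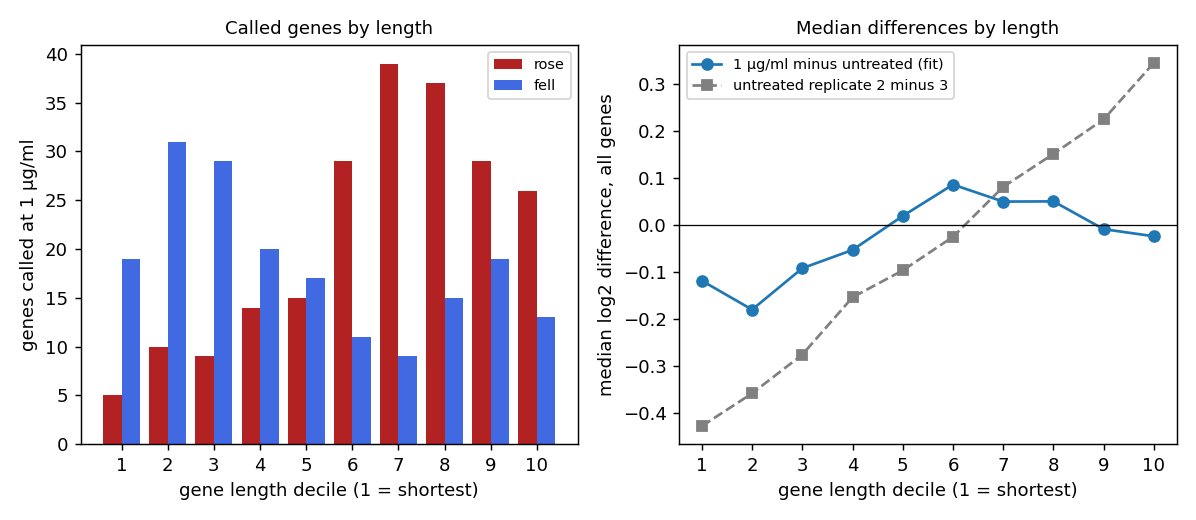
Left, genes called at 1 µg/ml against untreated (y axis, number of genes) in each decile of gene length (x axis, 1 is the shortest), with rises in red and falls in blue. Right, median log2 difference over all genes of each decile for 1 µg/ml minus untreated (circles) and for untreated replicate 2 minus untreated replicate 3 (squares), the second running from -0.43 to 0.35.

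Of the called genes, 4 are described by ID, 2 that rose and 2 that fell, by the same rule in each direction: the gene with the smallest p among those averaging at least 1 CPM, and the gene with the largest fold change among those averaging at least 30 CPM. Where 1 gene met both criteria, as ENSGALG00000009562 did, the gene with the next smallest p took the other place. Their roles are not given, since the IDs were not paired with names. All of them were called at 1 µg/ml, and the rule fixed that their libraries do not overlap.

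ENSGALG00000009748, an abundant transcript of 2994 bases, stood at 157 and 221 CPM in untreated replicates 2 and 3 and at 663, 673 and 705 CPM in replicates 1, 2 and 3 at 1 µg/ml. The libraries with DAN were nearly level, and the lowest of them lay 2.99-fold above the higher untreated one. Its mean rose from 189 ± 45.9 CPM (SD, n = 2) to 680 ± 21.9 CPM (SD, n = 3), a log2 fold change of 1.85 ± 0.20 (SE; adjusted p = 0.0286, edgeR). At 10 µg/ml the level was 713 ± 110 CPM (SD, n = 3), close to that at 1 µg/ml, with libraries at 820, 719 and 600 CPM that enclose it. Per length the gene went from a mean of 62.9 to 227 RPKM, in the authors' deposited values.

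ENSGALG00000009562, a gene of 1716 bases, had the largest fold change among the 94 rises that averaged at least 30 CPM. It stood at 6.99 and 6.73 CPM in untreated replicates 2 and 3, almost the same level in both dishes. At 1 µg/ml it reached 61.9, 35.4 and 38.3 CPM in replicates 1, 2 and 3. Replicate 1 was the high one, 1.75-fold over the lowest of its group, and that lowest still lay 5.07-fold above the higher untreated library. The mean rose from 6.86 ± 0.185 CPM (SD, n = 2) to 45.2 ± 14.5 CPM (SD, n = 3), a log2 fold change of 2.72 ± 0.28 (SE; adjusted p = 0.0286, edgeR). Its level at 10 µg/ml was 40.5 ± 4.72 CPM (SD, n = 3). Of the genes described by ID it kept its call under the most alternatives, 16 of 22, including the replicate block (adjusted p = 0.0447, edgeR). ENSGALG00000009748 and ENSGALG00000000317 kept theirs under 13 and ENSGALG00000015013 under 12. Over all 396 called genes the median was 11 and the most 16.

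ENSGALG00000000317, a gene of 3184 bases, fell evenly. It stood at 42.2 and 35.3 CPM in untreated replicates 2 and 3 and at 12.7, 14.5 and 13.6 CPM in replicates 1, 2 and 3 at 1 µg/ml, so that the lower untreated library was 2.44-fold above the highest with DAN. The mean fell from 38.7 ± 4.87 CPM (SD, n = 2) to 13.6 ± 0.919 CPM (SD, n = 3), a log2 fold change of -1.51 ± 0.18 (SE; adjusted p = 0.0309, edgeR). Its level at 10 µg/ml was 11.3 ± 1.23 CPM (SD, n = 3).

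ENSGALG00000015013, a gene of 1386 bases, had the largest fall among the 61 that averaged at least 30 CPM. Its untreated libraries stood at 340 and 666 CPM in replicates 2 and 3, nearly 2-fold apart, and those at 1 µg/ml at 152, 114 and 136 CPM. The lower untreated library was still 2.23-fold above the highest with DAN. The mean fell from 503 ± 230 CPM (SD, n = 2) to 134 ± 19.0 CPM (SD, n = 3), a log2 fold change of -1.91 ± 0.29 (SE; adjusted p = 0.0309, edgeR). Against untreated replicate 3 alone the log2 fold change was -2.32 and against untreated replicate 2 alone -1.34. At 10 µg/ml the level was 91.3 ± 24.5 CPM (SD, n = 3). Per length it was the most abundant of the genes described by ID in untreated cells, with a mean of 361 RPKM, and stood at 97.0 RPKM at 1 µg/ml.

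**Figure D4:**
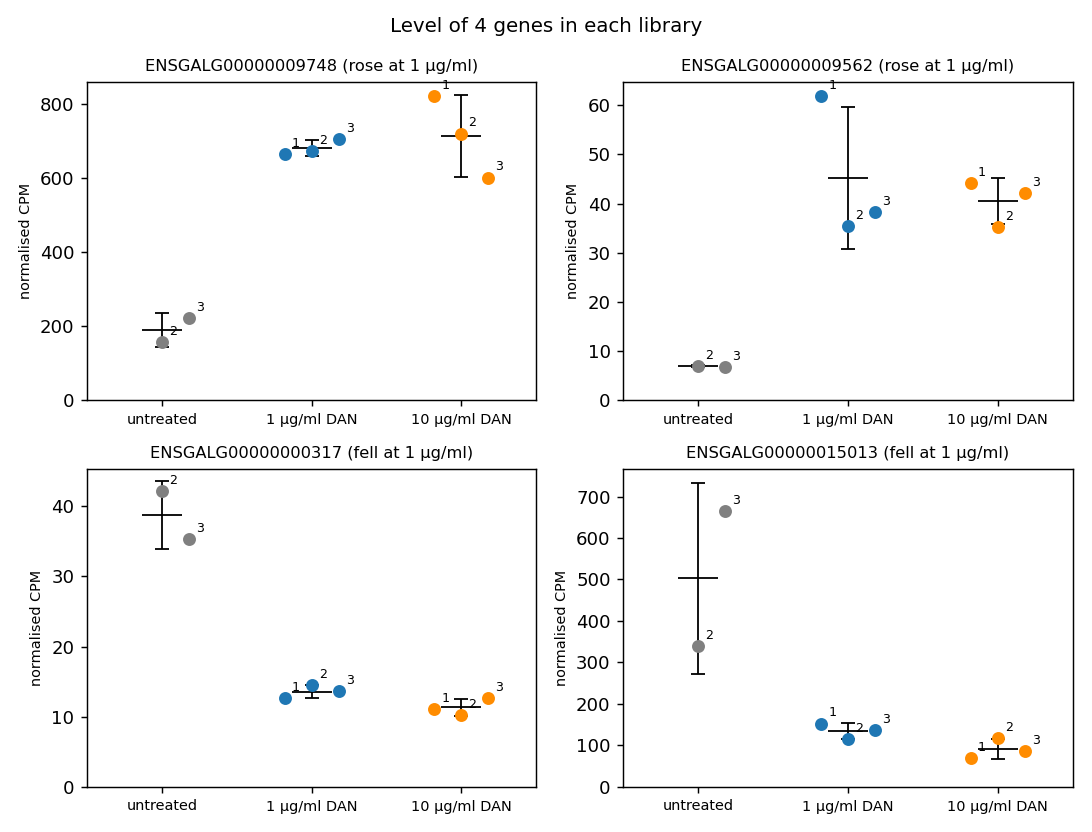
Normalised CPM (y axis, from 0) of the 4 genes described by ID in every library, with the replicate number beside each point and the mean ± SD of each group in black. For each gene all 3 libraries at 1 µg/ml lie on 1 side of both untreated libraries, and the untreated libraries of ENSGALG00000015013 lie furthest apart, at 340 and 666 CPM.

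Each of these 4 calls was lost when some single libraries were left out, though not for every library. Without replicate 1, 2 or 3 at 1 µg/ml, ENSGALG00000009748 had an adjusted p of 0.0670, 0.0533 and 0.0560 and ENSGALG00000000317 one of 0.0670, 0.0669 and 0.0672 (edgeR). ENSGALG00000015013 had 0.0670, 0.0813 and 0.107, while ENSGALG00000009562 had 0.0291, 0.0218 and 0.0527, so it was lost without replicate 3 alone (edgeR). Without replicates 1 and 3 at 10 µg/ml, which enter through the shared spread, all of them had an adjusted p of 0.0562 and 0.0640 (edgeR). ENSGALG00000015013 was also lost without replicate 2 at 10 µg/ml, at 0.0539, while the other genes described by ID kept their calls there at 0.0466 (edgeR). Across the 22 alternatives the adjusted p spanned 6.13e-14 to 0.296 for ENSGALG00000009748, from 8.11e-19 to 0.296 for ENSGALG00000009562, from 9.95e-12 to 0.296 for ENSGALG00000000317 and from 4.81e-07 to 0.296 for ENSGALG00000015013. The lowest of each range came from DESeq2 and the highest from limma-voom with a weight per group. The log2 fold changes kept their sign throughout, from 1.61 to 2.12, from 2.42 to 2.87, from -1.63 to -1.31 and from -2.32 to -1.34 in the same order.

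The number of genes called depended on single libraries and on how the spread was estimated. The count filter was run anew each time a library was left out, so those fits tested 13956 to 14554 genes. Without untreated replicate 2 it was 825 (312 rose, 513 fell), and without untreated replicate 3 it was 3469 (1946 rose, 1523 fell). Each of these fits draws its spread from dishes with DAN only, as a lone untreated library has none. Dropping replicate 1, 2 or 3 at 1 µg/ml left 1, 3 and 1 calls. Dropping replicate 1, 2 or 3 at 10 µg/ml left 0, 15 and 0. The fits that gave 0 still had 3263 and 3162 genes at an unadjusted p under 0.05 (edgeR). Of the 396 genes, 244 were called against each untreated library alone (130 rose, 114 fell). Those fits had 327 called genes in common, and 50 of them were called in opposite directions: 43 were higher at 1 µg/ml than untreated replicate 2 and lower than untreated replicate 3, and 7 were the reverse. None of these 50 is among the 396.

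The untreated group varied more than the fit's single shared spread assumes. On 67.9% of genes the SD of the 2 untreated libraries exceeded that of the 3 libraries at 1 µg/ml. When limma-voom estimated a weight per group, it was 0.336 for untreated, 1.30 for 1 µg/ml and 1.60 for 10 µg/ml, and 0 genes were called, with 1712 at an unadjusted p under 0.05. With only the 5 libraries compared edgeR called 0 genes as well, with 2841 at an unadjusted p under 0.05 and a smallest adjusted p of 0.120. DESeq2 called 2157 genes (1060 rose, 1097 fell), which include all 396. Every one of the 396 genes kept the sign of its change in each of the 22 alternatives that tested it. Their libraries do not overlap, so leaving one out cannot turn their direction, and this is no sign of stability. Which of these counts is nearest to the number of genes that respond to 1 µg/ml cannot be told from 2 untreated libraries.

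**Figure D5:**
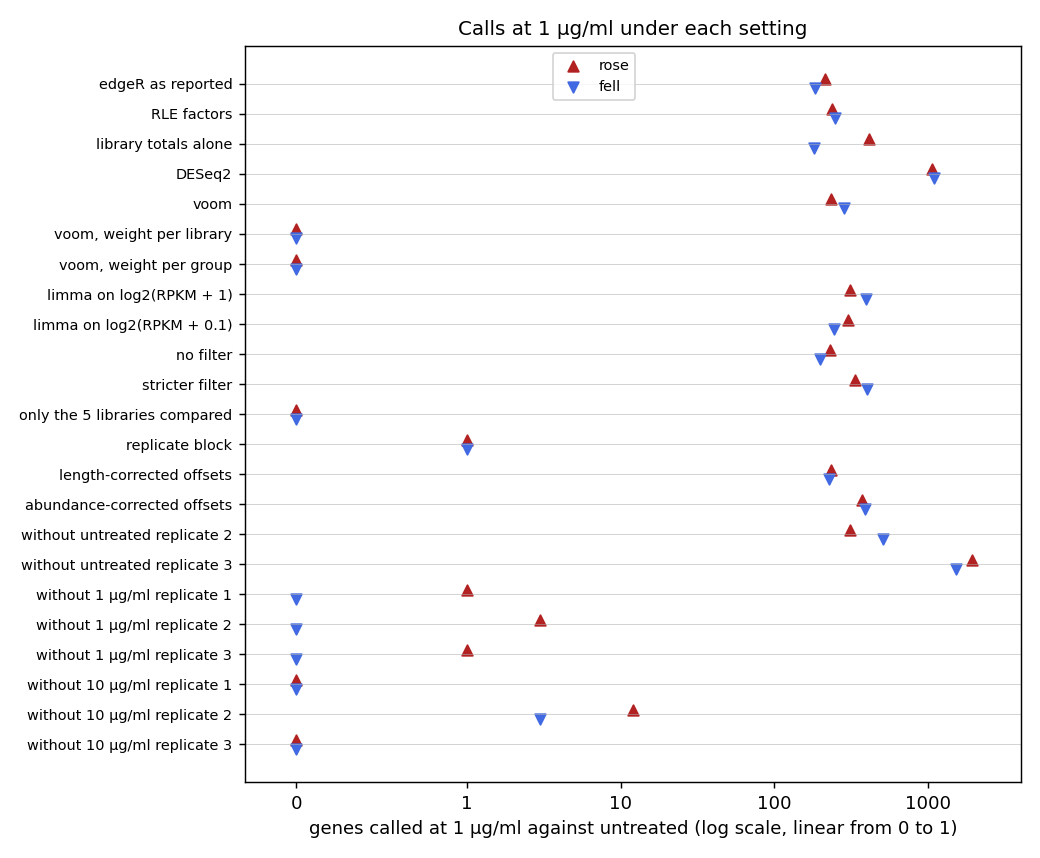
Number of genes called at 1 µg/ml against untreated (x axis, log scale that is linear from 0 to 1) under each setting (y axis), with rises as upward and falls as downward triangles. The count was 0 with weights in voom, with only the 5 libraries compared, and without replicate 1 or replicate 3 at 10 µg/ml. It was highest without untreated replicate 3, where 1 untreated library remains.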

How the data were processed

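The authors deposited whole-number read counts and RPKM values for the same Ensembl genes in 8 libraries. The submitters' processing notes name the build galGal4 and, without roles, edgeR 3.12.0, TopHat2 2.0.13, bedtools and FastQC 0.10.1. How mates, strand and multiply mapped reads were counted is not stated there, and overlapping or near-identical genes are uncertain for that reason. The cDNA kit (SMART-seq v4, per the labels' protocols) has no molecular identifiers.

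The counts were fitted with edgeR 4.0.16 (R 4.3.3): 8 libraries, group means, TMM factors, filterByExpr with a minimum count of 10, 2-sided quasi-likelihood tests adjusted over all 14085 genes. The SE is the log2 fold change divided by the root of the F statistic. The fit was tested on simulated data with the same spread in every group, so the wider untreated spread was not part of that test. Replicates of a group differed beyond sampling noise (chi-square per degree of freedom 69.2 to 354, on totals without TMM factors). That cannot show whether the samples are independent. Each library counted once. Lengths come from counts over RPKM, which scaled as TMM-adjusted totals within 0.017% for 5133 genes.

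Comparison, lists and the rule for named genes were set with earlier results of these data known. The gene lists and markers needed symbols and were not tested; 2 genes per direction were named. Alternatives used limma 3.58.1, DESeq2 1.42.0, other scalings, filters, offsets and left-out libraries. The labels do not say whether replicates came from separate embryos, so p-values measure the spread between these samples. A p over the threshold does not show that levels were equal.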

Additional observations from a re-analysis of the deposited data

How the results depend on the processing

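The count of 396 genes stayed within 1.5 times under 6 of 22 alternatives (RLE factors, library totals, voom, log2(RPKM + 0.1), no filter and length-corrected offsets). It was 2157 with DESeq2, 706 with limma on log2(RPKM + 1), 735 with the stricter filter (1 CPM in 2 libraries) and 762 with abundance-corrected offsets. The genes tested numbered 10918 with the stricter filter, 16832 with no filter and 13915 with only the 5 libraries compared, against 14085. It was 0 with voom weights per library or per group and with only the 5 libraries compared, where 1747, 1712 and 2841 genes had an unadjusted p under 0.05. With the replicate block it was 2 genes, of which 1 is among the 396. Leaving out 1 library at a time gave 0 to 3469. The cause was not tested. The share of genes without overlap, 39.9%, was 36.6% to 41.6% under the planned scalings and filters and 46.0% to 78.4% with 1 library left out (chosen after seeing the data), where fewer libraries overlap less by construction. Between the groups compared, replicate numbers are shared by 2 pairs only, whose deviations from group means correlated at 0.029 and 0.024 across genes. With 2 untreated libraries these deviations mirror each other, so the values are not separate checks. The replicate block was fitted over all 8 libraries. Tests of gene lists were not run, since no ID had a symbol. Depth limits genes near the floor of 3 counts, 0.0143 to 0.0543 CPM per library compared.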
